A study of Rattus norvegicus with 23 samples.

Results

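The SBH/y rat is the line of the Sabra rat bred for its tendency to develop hypertension, and the response of its kidney to the loss of the other kidney is described here. The members are 12 of the 23 arrays of the series: 6 kidneys of male SBH/y rats after right uninephrectomy (1 kidney) and 6 kidneys of male SBH/y rats after a sham operation (2 kidneys). They were chosen by strain and operation as the sample titles give them, and 1 kidney was compared with 2 kidneys over all probe sets that are not array controls. All rats ate standard chow and were killed 3 months after the operation, when they were 4 months old. The other 11 arrays, 6 from SBN/y rats with 1 kidney and 5 from SBN/y rats with 2 kidneys, come from the hypertension-resistant Sabra line and served for the estimate of the spread and for the test of a difference between the strains. The series was deposited under a title about proteinuria. Whole-kidney RNA was read on Affymetrix arrays, with 1 array for each sample. The array number in a title names a rat within its group, and rats are called by it below. No label beyond these names says that each array is a separate rat, so p-values measure the spread between the samples. Which kidney was taken from sham-operated rats is not given in the sources used here.

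After the loss of a kidney, the remaining one enlarges and filters more per nephron. In models where too few nephrons are left, tubule cells lose differentiated functions and make injury proteins, leukocytes gather in the interstitium, fibroblasts lay down collagen, and protein leaks through the glomerular filter. Each of these processes has genes that mark it in whole-kidney RNA, and the genes below are grouped by them.

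Of 31042 probe sets tested, 950 rose (3.06%) and 613 fell (1.97%) in rats with 1 kidney, or 5.04% in all (limma, adjusted p under 0.05). With each gene taken at its brightest probe set, 677 of 14217 genes rose (4.76%) and 341 fell (2.4%), or 7.16% in all, and these shares are the background for every list below. Without 1-kidney rat 1 the fallen probe sets numbered 369 and the risen ones 688. The groups did not overlap at all for 422 genes that were higher (2.97%) and 191 that were lower (1.34%) with 1 kidney. Values are RMA signals on the log2 scale, where a difference of 1 is a doubling, and the median of all values was 4.66. A log2 difference is 1 kidney minus 2 kidneys and is given ± its standard error (SE) from the fit, with n = 6 and 6. The 3′ minus 5′ signal of the GAPDH control probes, a sign of RNA degradation, was 0.53 ± 0.11 log2 (SD, n = 6) with 1 kidney and 0.46 ± 0.06 (SD, n = 6) with 2, and was highest in 1-kidney rat 2 at 0.72. With that measure as a covariate 719 probe sets rose and 462 fell.

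Promoters of 4 genes that rose are shown first, because they carry the letters by which textbook regulators of their groups are known. The sequences are the 250 bases before the start of the gene in RefSeq (GRCr8), 5′ to 3′ on the strand of the gene, with motif matches in capitals. RT1-Da, the alpha chain of a class II antigen-presenting molecule, lies at chr20:4515165-4515414 (+ strand) and holds an X box (CC, 2 bases, GCAAC, 1 base, GATG) and a Y box (CTGATTGG). Cxcl10, an interferon-induced chemokine for T cells, lies at chr14:15988816-15989065 (+ strand) and holds an interferon-stimulated response element (a pair of GAAA with 2 bases between) and NF-kB sites (GGG, 3 bases, TTCC). Ccn1, a matricellular protein and a known target of the YAP coactivator, lies at chr2:237225690-237225939 (- strand) and holds a TEAD site (GGAATG, here as its reverse complement). Klf6, an early-response transcription factor, lies at chr17:69458479-69458728 (- strand) and holds a CArG box, the site of serum response factor.
RT1-Da: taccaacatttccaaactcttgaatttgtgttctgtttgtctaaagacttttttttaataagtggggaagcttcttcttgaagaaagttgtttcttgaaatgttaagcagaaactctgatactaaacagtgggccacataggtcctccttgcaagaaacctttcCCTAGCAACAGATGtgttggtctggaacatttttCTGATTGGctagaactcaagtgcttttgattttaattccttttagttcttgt
Cxcl10: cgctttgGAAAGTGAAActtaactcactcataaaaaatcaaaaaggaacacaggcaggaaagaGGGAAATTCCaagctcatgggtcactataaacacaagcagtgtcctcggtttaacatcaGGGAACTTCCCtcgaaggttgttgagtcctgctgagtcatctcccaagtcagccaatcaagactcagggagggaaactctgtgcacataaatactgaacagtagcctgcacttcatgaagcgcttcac
Ccn1: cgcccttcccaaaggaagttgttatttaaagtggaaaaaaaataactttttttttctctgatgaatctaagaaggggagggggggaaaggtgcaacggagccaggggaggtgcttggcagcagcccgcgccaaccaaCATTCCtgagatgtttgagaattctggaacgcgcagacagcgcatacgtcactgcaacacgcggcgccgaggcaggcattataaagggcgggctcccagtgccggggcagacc
Klf6: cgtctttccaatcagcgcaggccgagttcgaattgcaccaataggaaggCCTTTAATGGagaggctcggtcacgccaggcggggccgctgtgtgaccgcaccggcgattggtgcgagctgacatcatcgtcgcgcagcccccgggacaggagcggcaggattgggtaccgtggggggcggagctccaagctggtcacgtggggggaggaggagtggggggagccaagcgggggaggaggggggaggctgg
Both strands were searched in 11733 promoters of measured genes. The Y box stood in 4.54% of them and in 4 of 8 of the class II list, and the X box in 0.03% and in 1 of 8 of that list. The interferon element stood in 2.65% and in 15 of 21 of the interferon list. Of those 15, Ifi27, Bst2 and Cxcl10 rose. The NF-kB letters, 2 matches of which overlap in Cxcl10, stood in 5.48% and in 10 of 26 of the NF-kB list. The TEAD letters stood in 10.38% and in 10 of 19 YAP and serum response factor targets, and the CArG box in 1.24% and in 5 of 21 immediate early genes. Among the genes that rose, 4.83% held the Y box, 4.09% the interferon element, 7.81% the NF-kB letters, 12.45% the TEAD letters and 1.12% the CArG box. Among those that fell the shares were 2.96%, 1.85%, 6.3%, 12.22% and 0.37% in the same order, so the TEAD letters were about as frequent in both. The AP-1 letters (TGANTCA) stood in 4.84% of all promoters, in 7.62% of genes that rose, in 4.44% of those that fell and in 2 of 27 of the injury list. The lists were chosen from textbook knowledge of such groups, so the share of a motif in its list does not bear on the response. A match describes the letters of this window and is neither a binding site nor a cause.

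Many genes of a list of tubular injury and repair rose in the kidney that remained in SBH/y. Some of them also stand in the macrophage, matrix enzyme or parietal cell lists, and whole-kidney RNA does not tell which cells made them. Of 32 measured genes of tubular injury and repair, 20 rose and 0 fell, with a median difference of 0.42, against 4.76% of all genes that rose. Havcr1 encodes kidney injury molecule 1, a receptor that proximal tubule cells make after damage. It read between 3.93 and 4.71 (median 4.09) with 2 kidneys and between 6.96 and 8.53 (median 7.09) with 1. Every rat with 1 kidney thus lay far above every rat with 2, in which the probe set was dim, and the difference was 3.20 ± 0.24 (adjusted p = 1.67e-09), or 9.21-fold. It had the largest difference of all genes that rose. Spp1, which encodes osteopontin, a secreted attractant of macrophages, read between 10.42 and 10.66 (median 10.55) with 2 kidneys and between 11.74 and 12.54 (median 11.90) with 1 and rose by 1.45 ± 0.10 (adjusted p = 9.86e-10). Tnfrsf12a, the receptor of the cytokine TWEAK, read between 4.93 and 5.66 (median 5.52) with 2 kidneys and between 6.36 and 7.20 (median 6.85) with 1 and rose by 1.40 ± 0.12 (adjusted p = 1.21e-08). Clu, which encodes clusterin, an extracellular chaperone, read between 8.37 and 8.72 (median 8.46) with 2 kidneys and between 9.34 and 10.54 (median 9.62) with 1 and rose by 1.25 ± 0.12, while its next brightest probe set did not pass at 0.18 (adjusted p = 0.214). In none of these genes did the groups overlap.

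The rest of the injury list held secreted inhibitors, the cytoskeleton and surface proteins. The protease inhibitors Slpi (1.13 ± 0.10) and Timp1 (0.95 ± 0.10) rose, as did the hyaluronan receptor Cd44 (0.82 ± 0.11). The filament genes Vim (0.74 ± 0.08) and Krt8 (0.47 ± 0.06) rose with them. The membrane-binding Anxa1, Anxa2 and Anxa5 rose by 0.41 ± 0.07, 0.47 ± 0.07 and 0.38 ± 0.06, and S100a10 and S100a11 by 0.48 ± 0.07 and 0.52 ± 0.07. Ceruloplasmin (Cp), a copper carrier of plasma, rose by 0.55 ± 0.09, and the cell cycle inhibitor Cdkn1a by 0.43 ± 0.07. The transcription factor Sox4 rose by 0.42 ± 0.08. Runx1, a transcription factor outside the list, rose by 1.05 ± 0.17 (adjusted p = 0.000233). Lcn2, which encodes the injury marker neutrophil gelatinase-associated lipocalin, did not pass the test at -0.09 ± 0.07 (adjusted p = 0.649). Slc34a2, a sodium-phosphate cotransporter of lung and gut rather than of kidney, rose by 0.90 ± 0.12 (adjusted p = 2.65e-05). Cpe (carboxypeptidase E), which trims prohormones, rose by 1.12 ± 0.14, and Rprm, a p53-induced brake on the cell cycle, by 0.99 ± 0.13.

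**Figure D1:**
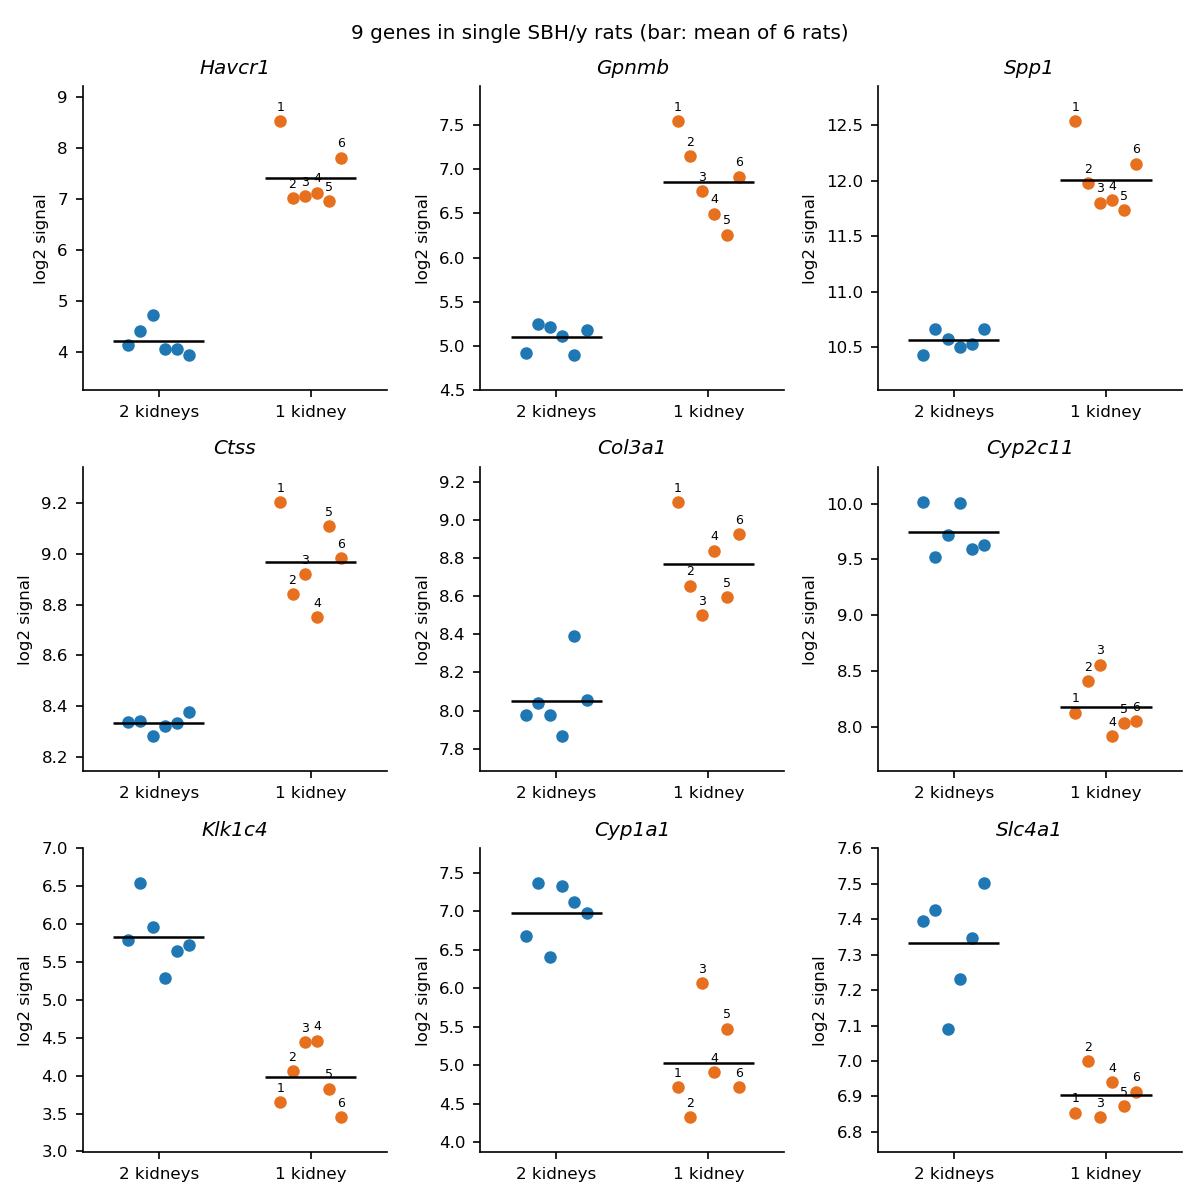
Log2 signal (y axis) of 9 genes in each SBH/y rat with 2 kidneys (blue) and with 1 kidney (orange). Points are rats, labelled by number in the 1-kidney group, and bars are group means. Havcr1, Gpnmb, Spp1, Ctss and Col3a1 are higher in every rat with 1 kidney than in any with 2, and Cyp2c11, Klk1c4, Cyp1a1 and Slc4a1 are lower.

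Macrophages take up debris and iron and also shape scar tissue, and most of their markers rose. Of 27 macrophage markers 19 rose and 0 fell, with a median of 0.50. Gpnmb, a glycoprotein of lipid-laden and lysosome-rich macrophages, read between 4.89 and 5.24 (median 5.15) with 2 kidneys and between 6.26 and 7.55 (median 6.84) with 1 and rose by 1.76 ± 0.14 (adjusted p = 4.84e-09). Mmp12, the macrophage elastase, read between 4.60 and 5.08 (median 4.79) with 2 kidneys and between 5.39 and 6.58 (median 6.34) with 1 and rose by 1.45 ± 0.13 (adjusted p = 8e-08). Their groups did not overlap. Fcgr2b, the inhibitory Fc receptor, rose by 0.998 ± 0.11, the mannose receptor Mrc1 by 0.58 ± 0.13 and Clec10a, another lectin of macrophages and dendritic cells, by 1.02 ± 0.10. The NADPH oxidase subunit Cybb rose by 0.72 ± 0.14 and the complement starters C1qa, C1qb and C1qc by 0.55 ± 0.10, 0.52 ± 0.10 and 0.50 ± 0.09. Of 7 dendritic cell markers 4 rose, among them Clec9a (0.52 ± 0.08), which marks cross-presenting cells, and Cd83 (0.62 ± 0.08), a sign of maturation. Whole kidney was measured, so more cells of a type and more RNA per cell cannot be told apart, nor fewer cells and less RNA per cell.

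Lymphocyte markers rose in part. Of 25 T and NK cell markers 8 rose, with the receptor chains Cd3g (0.62 ± 0.08), Cd3e (0.46 ± 0.08) and Cd3d (0.34 ± 0.08) and the kinase Lck (0.39 ± 0.08). That count was 4 without the 3 SBH/y arrays of lowest quality weight. Of 11 B and plasma cell markers 3 rose. Jchain, which joins secreted antibodies, read between 4.80 and 5.19 (median 5.09) with 2 kidneys and between 6.05 and 7.56 (median 6.67) with 1 and rose by 1.65 ± 0.20 (adjusted p = 5.5e-06), Ighl2 rose by 1.38 ± 0.16 and Pou2af1, a B cell coactivator, by 0.35 ± 0.08. Ccl19, Ccl21 and the receptor Cxcr4 guide lymphocytes and dendritic cells, and they rose by 0.62 ± 0.11, 0.66 ± 0.12 and 0.58 ± 0.11. Of 32 chemokines and their receptors 8 rose, with Ccl6 at 0.89 ± 0.12 and Cxcl10 at 0.52 ± 0.12. Mmrn1, which is made by lymphatic endothelium, rose by 0.63 ± 0.10. Of 7 neutrophil markers 5 had a positive difference, 1, Mmp9, fell and 0 rose (limma; 1 higher at an unadjusted p under 0.05). In 5 alternatives 1 rose: the GAPDH covariate, the fit without the 3 arrays of lowest quality weight, and those without 2-kidney rat 4, SBN/y 1-kidney rat 1 or SBN/y 2-kidney rat 5. None of 9 mast cell markers passed, with 1 lower and 0 higher at an unadjusted p under 0.05, and 1 fell without 2-kidney rat 5.

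The antigen presentation genes moved together. Of 10 class II genes 8 rose, all 10 had a positive difference, and the median was 0.44. Ctss, which encodes the protease that trims the invariant chain, read between 8.28 and 8.38 (median 8.34) with 2 kidneys and between 8.75 and 9.20 (median 8.95) with 1 and rose by 0.64 ± 0.07 (adjusted p = 2.01e-06). RT1-Da read between 10.25 and 10.42 (median 10.35) with 2 kidneys and between 10.76 and 11.02 (median 10.83) with 1 and rose by 0.53 ± 0.09, with no overlap. Its partner RT1-Db1 rose by 0.59 ± 0.09, the peptide loaders RT1-DMa and RT1-DMb by 0.54 ± 0.08 and 0.41 ± 0.07, and the invariant chain Cd74 by 0.43 ± 0.08. Of 16 class I and proteasome genes 5 rose and all 16 were higher, with the immunoproteasome subunits Psmb8 at 0.60 ± 0.09 and Psmb10 at 0.46 ± 0.08. That count was 3 without 1-kidney rat 1 and 8 without 2-kidney rat 3.

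Among innate pathways the changes were partial. Of 18 complement genes 9 rose and 1 fell, the fallen one being Cd59b at -0.22 ± 0.06 (adjusted p = 0.0364), which passed in 15 of 23 fits that each left out 1 array (adjusted p up to 0.121). Cfi, the protease that inactivates C3b, rose by 0.95 ± 0.13 and the anaphylatoxin receptor C5ar1 by 0.63 ± 0.08. Of 28 interferon-induced genes 7 rose and 25 were higher, with a median of 0.20. Ifi27 read between 9.50 and 9.75 (median 9.73) with 2 kidneys and between 10.12 and 10.36 (median 10.15) with 1 and rose by 0.51 ± 0.07, and Irf8 rose by 0.52 ± 0.10. Of 30 NF-kB genes 7 rose. Ubd, an ubiquitin-like protein induced by cytokines, rose by 1.35 ± 0.10 (adjusted p = 1.67e-09), the survival gene Birc3 by 0.72 ± 0.11 and the adhesion receptor Icam1 by 0.44 ± 0.07.

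Collagen is the bulk of scar matrix, and 11 of 22 collagen genes rose while 0 fell (median 0.31). Col3a1, a fibrillar collagen, read between 7.87 and 8.39 (median 8.01) with 2 kidneys and between 8.50 and 9.09 (median 8.75) with 1 and rose by 0.72 ± 0.09 (adjusted p = 6.02e-06). Col1a1 read between 6.43 and 7.19 (median 6.78) with 2 kidneys and between 7.03 and 8.14 (median 7.70) with 1 and rose by 0.84 ± 0.14 (adjusted p = 0.000417), but here the groups overlapped. The fibrillar Col5a2 rose by 0.77 ± 0.11, the microfibrillar Col6a1 by 0.56 ± 0.08, and the basement membrane chains Col4a1 and Col4a2 by 0.44 ± 0.07 and 0.43 ± 0.09. Of 29 other matrix genes 7 rose, among them the elastic fibre genes Mfap4 (0.77 ± 0.11), Fbn1 (0.67 ± 0.08) and Efemp2 (0.59 ± 0.07). Fibronectin (Fn1) rose by 0.42 ± 0.08. Tgfbi fell by 0.22 ± 0.07, the only fall of that list, and it passed in 4 of 23 fits that each left out 1 array (adjusted p up to 0.13). Mgp, an inhibitor of calcification, rose by 0.87 ± 0.06. Of the general markers of fibroblasts and vessel muscle, 4 of 15 and 1 of 11 (the latter 2 without 2-kidney rat 4) rose, and 3 of the 4 fibroblast genes are collagens.

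Enzymes that build and cut matrix were also among the genes that rose. Of 29 such genes 13 rose and 1 fell (falls numbered 2 without 1-kidney rat 3 or SBN/y 2-kidney rat 2). Adamts1, a protease that cuts proteoglycans, read between 6.36 and 7.29 (median 6.88) with 2 kidneys and between 7.42 and 8.83 (median 8.24) with 1 and rose by 1.36 ± 0.19 (adjusted p = 3.55e-05). The crosslinking enzymes Loxl1 and Loxl2 rose by 0.46 ± 0.07 and 0.56 ± 0.14, and the collagenases Mmp2 and Mmp14 by 0.47 ± 0.08 and 0.52 ± 0.08. Mmp9, which macrophages, neutrophils and tubules make, fell by 0.52 ± 0.12. Of 27 genes of the TGF beta and BMP pathway 5 rose, including the ligands Tgfb1 (0.55 ± 0.10) and Inhbb (0.52 ± 0.10) and the target Ccn2 (0.45 ± 0.10), and Bmp4 fell by 0.51 ± 0.06 (falls numbered 2 without 1-kidney rat 3). Of 22 laminin and integrin genes 5 rose, Itgb4 by 0.59 ± 0.09 and the leukocyte chain Itgb2 by 0.36 ± 0.08. That count was 3 without the 3 arrays of lowest quality weight.

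Immediate early genes switch on within minutes of a stimulus, and 9 of 30 were raised 3 months after surgery. The median difference of the list was 0.12 in SBH/y and 0.17 in SBN/y. The test of a difference between the strains passed for 0 of 30 (limma; 9 at an unadjusted p under 0.05), and for 0 to 1 with 1 array left out. Klf6 read between 7.43 and 7.93 (median 7.83) with 2 kidneys and between 8.36 and 9.02 (median 8.67) with 1 and rose by 0.95 ± 0.10 (adjusted p = 3.93e-07), Myc rose by 0.93 ± 0.11, Egr1 by 0.80 ± 0.16 and Atf3 by 0.60 ± 0.10. Fos did not pass at -0.14 ± 0.11 (adjusted p = 0.606). Of 24 targets of YAP and serum response factor 10 rose, led by Ccn1, which read between 5.03 and 5.38 (median 5.19) with 2 kidneys and between 5.99 and 6.99 (median 6.33) with 1 and rose by 1.24 ± 0.13 (adjusted p = 8.61e-07). The receptor kinase Axl rose by 0.63 ± 0.09 and the actin-binding Actn1 and Tpm1 by 0.51 ± 0.10 and 0.41 ± 0.09. The single fall, Ptpn14 at -0.23 ± 0.07, passed in 8 of 23 fits that left out 1 array (adjusted p up to 0.126).

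Cell cycle and stress genes rose in part. Of 39 cell cycle genes 12 rose and 34 were higher (median 0.24). The mitotic kinesin Kif20a read between 3.52 and 3.98 (median 3.79) with 2 kidneys and between 4.07 and 4.53 (median 4.29) with 1 and rose by 0.52 ± 0.10, and Prc1 rose by 0.42 ± 0.10. Mki67 rose by 0.48 ± 0.09 from a dim mean of 3.31 with 2 kidneys. Ccnd1, the G1 cyclin, did not pass at -0.24 ± 0.11 (adjusted p = 0.312). Of 26 p53 and cell death genes 7 rose, among them Phlda3 (0.34 ± 0.08) and the inflammatory caspases Casp4 (0.31 ± 0.07) and Casp12 (0.56 ± 0.10). Of 27 endoplasmic reticulum stress genes 4 passed, a count that was 1 without 1-kidney rat 1. Of 13 heat shock genes 3 rose, with Dnajb1 at 0.57 ± 0.09, and Cryab, a chaperone of medullary cells, fell by 0.51 ± 0.07.

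**Figure D2:**
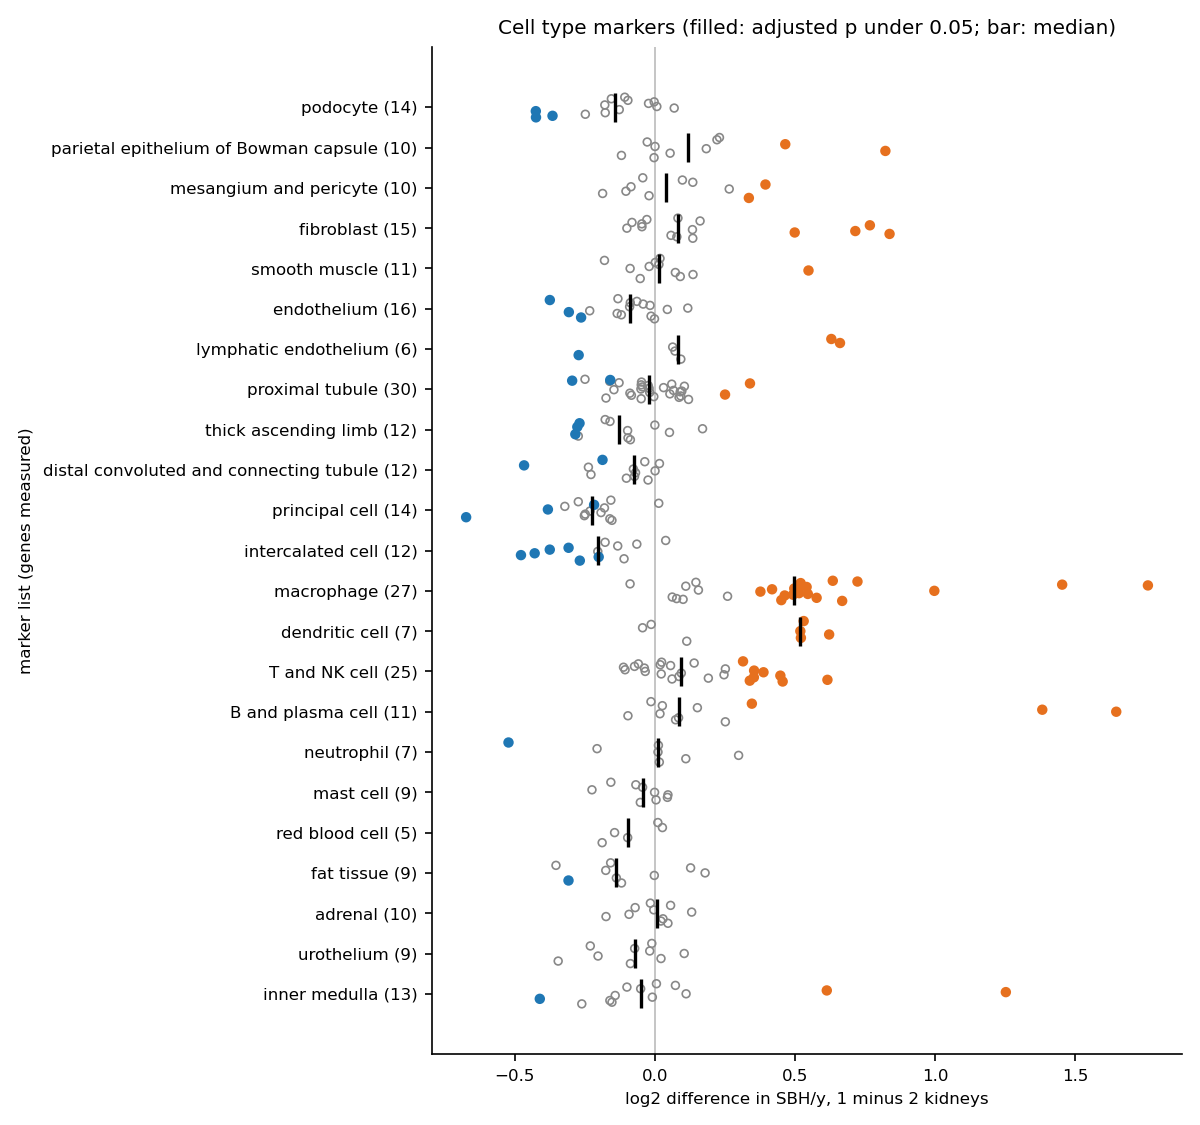
Log2 difference, 1 kidney minus 2 kidneys in SBH/y (x axis), of each measured marker of 23 kidney and blood cell types and other tissues (y axis). Filled points passed the test (limma, adjusted p under 0.05), open points did not, and bars mark the median of each list. The macrophage median is 0.50, the dendritic cell median 0.52 and the intercalated cell median -0.20.

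Some markers of the collecting duct and distal nephron fell. Intercalated cells secrete acid and base, and 6 of 12 of their markers fell and 0 rose (median -0.20), against 2.4% of all genes that fell. Slc4a1, the anion exchanger of acid-secreting cells, read between 7.09 and 7.502 (median 7.37) with 2 kidneys and between 6.84 and 6.999 (median 6.89) with 1 and fell by 0.43 ± 0.06 (adjusted p = 9.68e-05). The ammonia channel Rhcg fell by 0.37 ± 0.06, the proton pump subunit Atp6v1c2 by 0.48 ± 0.07 and Foxi1, the transcription factor of these cells, by 0.31 ± 0.07. Slc4a1, Rhcg and Atp6v1c2 did not overlap between the groups. Of 14 principal cell markers 3 fell, with Aqp4, a water channel of the basolateral membrane, at -0.67 ± 0.15 (adjusted p = 0.00759). That count was 1 without 1-kidney rats 1 or 3 or 2-kidney rat 4 and 7 without 1-kidney rat 5 and 5 without SBN/y 1-kidney rat 4, and 10 of the list were lower at an unadjusted p under 0.05.

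In the thick ascending limb 3 of 12 markers fell. The growth factor Egf, made there in large amounts, read between 11.02 and 11.18 (median 11.12) with 2 kidneys and between 10.72 and 10.92 (median 10.84) with 1 and fell by 0.28 ± 0.06 (adjusted p = 0.00351), and the chloride channel subunit Bsnd fell by 0.28 ± 0.05. Neither overlapped between the groups. Of 12 markers of the distal convoluted and connecting tubule 2 fell (1 without 1-kidney rats 1, 5 or 6 or 2-kidney rats 2, 3 or 4). Tissue kallikrein (Klk1), an enzyme of the connecting tubule that frees kinins, read between 9.84 and 10.19 (median 9.95) with 2 kidneys and between 9.28 and 9.73 (median 9.52) with 1 and fell by 0.47 ± 0.09 (adjusted p = 0.00125). Klk1c4, a close relative, read between 5.29 and 6.54 (median 5.76) with 2 kidneys and between 3.45 and 4.46 (median 3.94) with 1 and fell by 1.85 ± 0.21 (adjusted p = 2.44e-06), to 0.278 of its level. In all 4 of 12 kallikrein and kinin genes fell. The rat kallikreins are near-identical copies, so a probe set may read more than 1 of them, and the same holds for the P450, glucuronosyltransferase, class I and immunoglobulin genes named here.

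Of 37 sodium, chloride and potassium transport genes 7 fell and 0 rose (0 at an unadjusted p under 0.05), a count that was 4 without 1-kidney rat 1 or 2-kidney rat 4. Slc9a3, the main sodium-proton exchanger of the proximal tubule, read between 8.45 and 8.70 (median 8.60) with 2 kidneys and between 7.70 and 8.44 (median 8.10) with 1 and fell by 0.49 ± 0.08 (adjusted p = 0.000382), with no overlap. Stk39, a kinase that activates salt cotransporters, fell by 0.31 ± 0.06. Of 23 acid-base genes 5 fell (3 without 1-kidney rat 1 or 2-kidney rats 1, 2 or 6). The renin-angiotensin list had 4 of 16 fall (2 without 1-kidney rats 1 or 2 or 2-kidney rats 1 or 6 and 1 without 2-kidney rat 5). In that list Mme, which encodes neprilysin, a peptidase that breaks down natriuretic peptides and angiotensins, fell by 0.37 ± 0.07 (adjusted p = 0.000625). Guca2a and Guca2b encode guanylins, peptides that promote salt loss, and moved in opposite directions, at 0.44 ± 0.10 and -0.37 ± 0.07.

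Some markers of the glomerulus and of endothelium fell. Of 14 podocyte markers 3 fell and 2 had a positive difference (median -0.14). Nephrin (Nphs1), the backbone of the slit diaphragm that holds back protein, read between 5.16 and 5.68 (median 5.39) with 2 kidneys and between 4.58 and 5.29 (median 5.005) with 1 and fell by 0.42 ± 0.09 (adjusted p = 0.0056), with overlap between the groups. Ptpro, a phosphatase of podocyte foot processes, read between 6.74 and 6.85 (median 6.81) with 2 kidneys and between 6.26 and 6.51 (median 6.36) with 1 and fell by 0.42 ± 0.07 (adjusted p = 0.000545), with none. The podocyte count was 5 without 1-kidney rats 2 or 5, and was 5 with the GAPDH covariate. Podxl, a sialomucin of the podocyte surface, did not pass at -0.25 ± 0.08 (adjusted p = 0.0545). Of 10 parietal cell markers 2 rose, Cd44 and Krt8, both also in the injury list. Of 10 mesangial and pericyte markers 2 rose, the receptor Pdgfrb by 0.34 ± 0.08 and the filament gene Des by 0.40 ± 0.07. Of 16 endothelial markers 3 fell: the sialomucin Emcn by 0.31 ± 0.05, the VEGF receptor Kdr by 0.26 ± 0.06 and the arterial factor Sox17 by 0.37 ± 0.08. Vegfa itself fell by 0.25 ± 0.05, and it was the only one of 21 hypoxia genes to fall, with 0 rising (limma; 4 at an unadjusted p under 0.05) and 1 rising without 2-kidney rat 1.

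Few proximal tubule markers passed. In all 2 of 30 proximal tubule markers rose and 2 fell (1 to 2 and 1 to 4 when 1 array was left out, with 4 falls without 1-kidney rat 3). The cytochromes P450 oxidise drugs, steroids and fatty acids, and 1 of them had the largest fall of all named genes. Cyp1a1, the enzyme induced through the aryl hydrocarbon receptor, read between 6.41 and 7.36 (median 7.04) with 2 kidneys and between 4.32 and 6.06 (median 4.81) with 1 and fell by 1.94 ± 0.21 (adjusted p = 1.28e-06), to 0.26 of its level. Cyp2c11, a male-specific steroid hydroxylase, read between 9.52 and 10.01 (median 9.67) with 2 kidneys and between 7.91 and 8.55 (median 8.09) with 1 and fell by 1.57 ± 0.16 (adjusted p = 3.71e-07). No rat with 1 kidney reached the lowest rat with 2 in either gene. Of 43 P450 and phase 2 genes 8 fell, 5 without 1-kidney rat 1 and 5 with the GAPDH covariate. The glucuronosyltransferase Ugt2b7 fell by 0.47 ± 0.11. Of 19 genes set by sex steroids or growth hormone 3 fell, namely Cyp2c11, the organic anion carrier Slco1a1 (-0.49 ± 0.09) and the amino acid carrier Slc7a13 (-0.29 ± 0.06).

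Organic ion carriers and methyl-group enzymes fell in part. Of 37 carriers of organic ions and drugs 8 fell, with Slc22a13, a carrier of nicotinate and urate, at -0.69 ± 0.14, the monocarboxylate carrier Slc16a7 at -0.46 ± 0.09 and the cation carrier Slc22a2 at -0.24 ± 0.06. Abcc2, an export pump of the brush border, rose by 0.44 ± 0.11, and rises numbered 2 without 1-kidney rat 4. Of 51 genes of amino acid, creatine and one-carbon metabolism 7 fell and 0 rose (limma; 0 at an unadjusted p under 0.05). Bhmt, which remakes methionine from homocysteine with betaine, read between 5.93 and 6.13 (median 6.01) with 2 kidneys and between 5.28 and 5.89 (median 5.53) with 1 and fell by 0.48 ± 0.08 (adjusted p = 0.000539). Mat2a, which makes S-adenosylmethionine, read between 10.54 and 10.69 (median 10.62) with 2 kidneys and between 9.999 and 10.41 (median 10.23) with 1 and fell by 0.39 ± 0.06 (adjusted p = 0.00026). Ahcy, which removes the product of methylation, fell by 0.31 ± 0.06, and Mthfd1, an enzyme of the folate cycle, by 0.23 ± 0.05. These 4 genes stand side by side in the methionine and folate cycles, and their groups did not overlap. Acmsd, which draws tryptophan breakdown away from NAD synthesis, fell by 0.57 ± 0.10, and the vitamin D binding protein Gc by 0.60 ± 0.11.

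Few genes of the energy supply of tubule cells passed the test. None of 43 genes of oxidative phosphorylation passed (limma; 10 lower and 0 higher at an unadjusted p under 0.05), although 39 were lower and the median was -0.07. Without 2-kidney rat 1, 1 of them fell. Of 33 genes of fatty acid oxidation 2 fell (1 without 1-kidney rats 1 or 3 or 2-kidney rats 1, 2, 4, 5 or 6), and Acadsb, which handles branched short acids, led at -0.80 ± 0.17. Ppargc1a, a coactivator that drives mitochondrial genes, read between 8.09 and 8.36 (median 8.21) with 2 kidneys and between 7.69 and 7.99 (median 7.91) with 1 and fell by 0.33 ± 0.06 (adjusted p = 0.000804), without overlap. Lysosomal genes went the other way: of 35 genes of protein uptake and lysosomes 12 rose and 0 fell. Ctss, 1 of the 12, also stands in the macrophage and class II lists. Whole-kidney RNA does not tell which cells made these RNAs. The cathepsins Ctsz, Ctsl, Ctsd and Ctsb rose by 0.63 ± 0.08, 0.35 ± 0.05, 0.34 ± 0.07 and 0.21 ± 0.05, and the cholesterol carrier Npc2 by 0.39 ± 0.05. The uptake receptors megalin (Lrp2) and cubilin (Cubn) did not pass, at -0.02 ± 0.05 (adjusted p = 0.916) and 0.09 ± 0.07 (adjusted p = 0.634). Apoe and Abca1, which move cholesterol out of cells, rose by 0.59 ± 0.08 and 0.51 ± 0.11.

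Markers of tissues that may adhere to a kidney were checked as well. None of 10 adrenal, 9 urothelial or 5 red cell genes passed (limma), and 0 adrenal, 0 urothelial and 0 red cell genes were higher at an unadjusted p under 0.05, against 0, 3 and 0 lower. Without 2-kidney rat 4, 1 urothelial gene fell. Of 9 fat tissue markers 1, Plin1, fell (limma), a call lost in most fits that left out 1 array, and 0 rose. At an unadjusted p under 0.05, 2 of the 9 were lower and 0 higher. The mean difference of the fat list ran from -0.44 to 0.20 in SBH/y rats with 2 kidneys and from -0.31 to 0.14 with 1. In SBN/y rats it ran from -0.08 to 1.01. Of the clock genes, which swing with the time of day at which a kidney is taken, 3 of 19 rose and 1 fell (rises 1 without 1-kidney rats 1 or 6 or 2-kidney rat 2, and falls 3 without 1-kidney rat 2 and 2 without 2-kidney rat 3 or SBN/y 1-kidney rat 4 or SBN/y 2-kidney rats 1 or 5). Nfil3, a repressor of the clock's output, rose by 0.71 ± 0.10 (adjusted p = 7.76e-05), and Nr1d1, a repressor of the clock itself, fell by 0.90 ± 0.17 (adjusted p = 0.00098). Cry1, which is a core gene of the loop, was also among the 3 that rose. Bmal1 and Per1, other core genes of the loop, were at 0.03 ± 0.13 (adjusted p = 0.959) and 0.07 ± 0.07 (adjusted p = 0.755) and did not pass. The time of killing is not given in the labels, and its part in the clock genes was not tested.

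**Figure D3:**
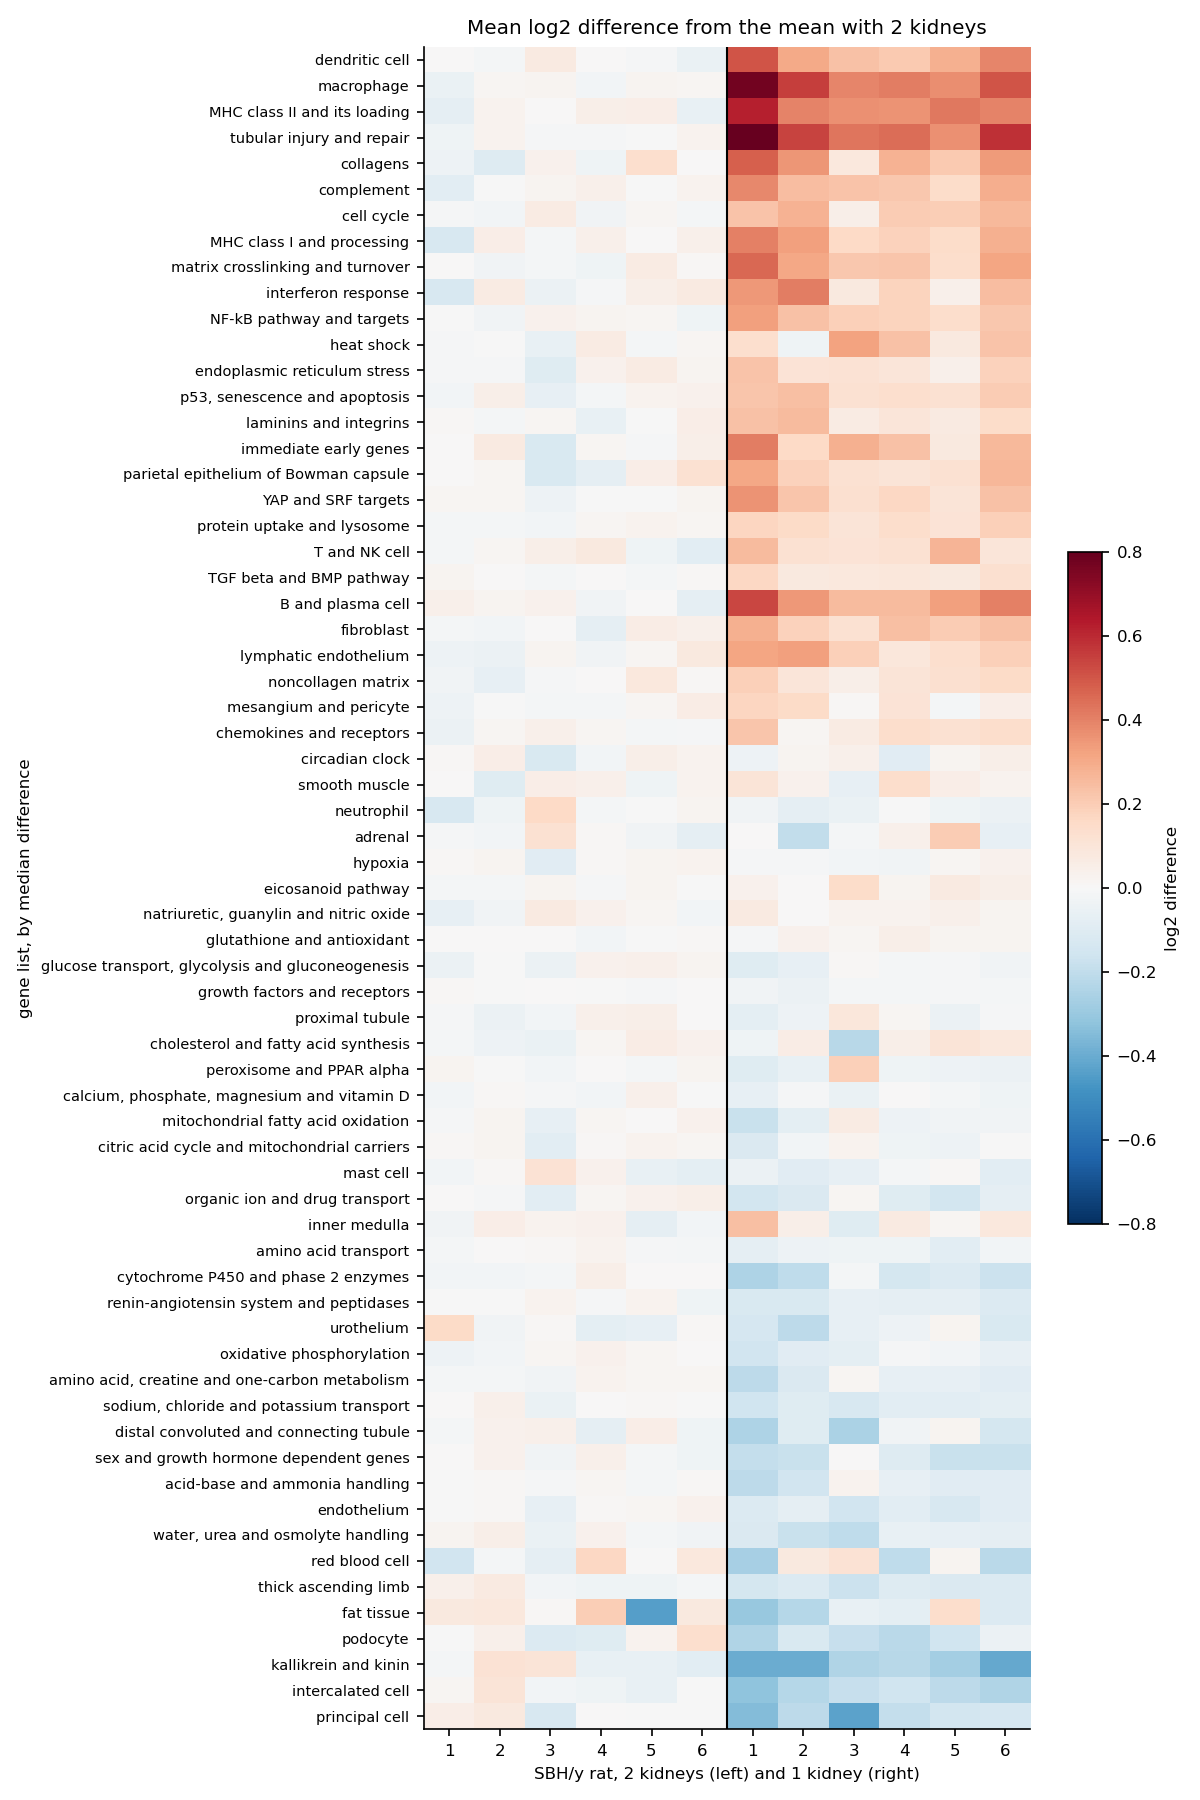
Mean log2 difference of 65 gene lists (rows) in each of the 12 SBH/y rats (columns), each gene set against its mean in the 6 rats with 2 kidneys. Red is higher, blue lower. 1-kidney rat 1 has the deepest colour in the injury (0.83) and macrophage lists (0.77), and 1-kidney rat 3 is the only 1-kidney rat with a positive mean in the peroxisome list (0.19).

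For most genes that passed, the rats with 1 kidney spread more widely than those with 2. Among the genes that rose, the SD was larger with 1 kidney for 503 of 677, and among those that fell for 244 of 341, against 55.2% of all genes. The median SD of the genes that rose was 0.164 with 1 kidney and 0.118 with 2. In SBN/y rats, which also enter the pooled spread, it was 0.12 with 1 kidney and 0.108 with 2. Genes share arrays and are not independent, so these shares describe the 12 rats and carry no test. 1-kidney rat 1 stood at the far end most often. It was the highest of its group for 337 of 677 genes that rose and the lowest for 168 of 341 that fell. Its median difference over the risen genes was 0.50, against 0.26 in rat 3 and 0.26 in rat 5. The test that chose these genes includes the values of rat 1, so these figures are no independent measure of that rat. In rats 1 to 6 with 1 kidney Havcr1 read 8.53, 7.01, 7.06, 7.12, 6.96 and 7.81. Clu read 10.54, 9.64, 9.58, 9.60, 9.34 and 9.77, with rat 1 apart from the others. Runx1 read 6.78, 5.89, 5.17, 5.42, 5.37 and 6.06, again highest in rat 1. The injury list as a whole had mean differences of 0.83, 0.54, 0.43, 0.45, 0.36 and 0.58 in the same order, so rat 1 led and rat 5 trailed. The macrophage list had 0.77, 0.55, 0.39, 0.41, 0.37 and 0.51.

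Several rats lay apart from their group in some genes. By more than 0.5 log2, rat 2 was above all 5 other rats with 1 kidney in 43 genes and below them in 6, rat 3 in 30 and 22, and rat 5 in 7 and 34. The other rats had 10 and 3 (rat 1), 2 and 0 (rat 4) and 1 and 0 (rat 6). Rat 5 had the lowest Mmp12, with values of 6.29, 6.39, 6.30, 6.49, 5.39 and 6.58 in rats 1 to 6, although its macrophage list was close to that of rats 3 and 4. The interferon list was uneven, with mean differences of 0.35, 0.41, 0.08, 0.18, 0.04 and 0.25. Rat 5 lay there within the range of rats with 2 kidneys, and rat 3 just above it (-0.13 to 0.07). The collagen list was 0.48, 0.35, 0.08, 0.28, 0.21 and 0.34, and rat 3 lay within the range with 2 kidneys (-0.10 to 0.14). Met, the receptor of hepatocyte growth factor, did not pass, but rat 2 read 4.68 where the other 5 read 5.64 to 5.94.

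1-kidney rat 3 read apart from its group in several lipid genes, a pattern seen after the values had been examined. Rats 2 and 5 also lay apart in many genes, as counted above. Vnn1 (pantetheinase), Cyp4a1 (a fatty acid hydroxylase), Eci1 and Ehhadh (enzymes of fatty acid oxidation) and Cpt2 (an importer of fatty acids into mitochondria) are known targets of the nuclear receptor PPAR alpha. Vnn1 read 8.32, 8.04, 9.30, 8.08, 7.82 and 8.17 in rats 1 to 6 with 1 kidney. Cyp4a1 read 10.36, 10.14, 10.99, 10.20, 10.36 and 10.32 and Cpt2 read 6.64, 6.68, 7.30, 6.60, 6.63 and 6.62. In each of these, rat 3 was the highest. Eci1 was 10.89 in rat 3 against 9.86 to 10.07 in the others, and Ehhadh 9.70 against 8.67 to 9.09. Srebf1, a driver of fat synthesis, read 7.95, 7.98, 6.94, 8.01, 8.10 and 7.77, and Scd2, a fatty acid desaturase, read 8.59, 8.82, 6.66, 9.05, 8.78 and 8.96. Here rat 3 was the lowest. None of these 7 genes passed the test over the group. Abca1 also was lowest in rat 3, at 5.76 against 6.45 to 6.74. Without rat 3 the count of risen genes in the cholesterol and fatty acid synthesis list went from 2 to 4.

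A similar pattern was present in 1 SBN/y rat, number 4 of those with 1 kidney. Vnn1 read 7.62, 7.61, 7.69, 8.49, 7.72 and 7.32 in the 6 SBN/y rats with 1 kidney in order, and Cpt2 read 6.65, 6.80, 6.67, 7.09, 6.89 and 6.85. Pdk4, which spares glucose when fat is burned, read 5.89, 6.09, 6.26, 7.66, 5.85 and 5.55. Rat 4 was the highest in all 3 genes. In the same rats Srebf1 read 7.56, 7.59, 7.59, 7.18, 7.30 and 7.48 and Scd2 read 9.49, 9.74, 9.63, 8.39, 9.31 and 9.89, and rat 4 was the lowest in both. Both rats weigh on the test of a difference between the strains, which called 79 probe sets (0.254%) with all arrays, 157 without SBH/y rat 3 and 131 without SBN/y rat 4. It called 133 without SBH/y 1-kidney rat 5 and 52 without SBN/y 1-kidney rat 6. The state of feeding and the time of killing are not given per rat, and their part in these genes was not tested.

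**Figure D4:**
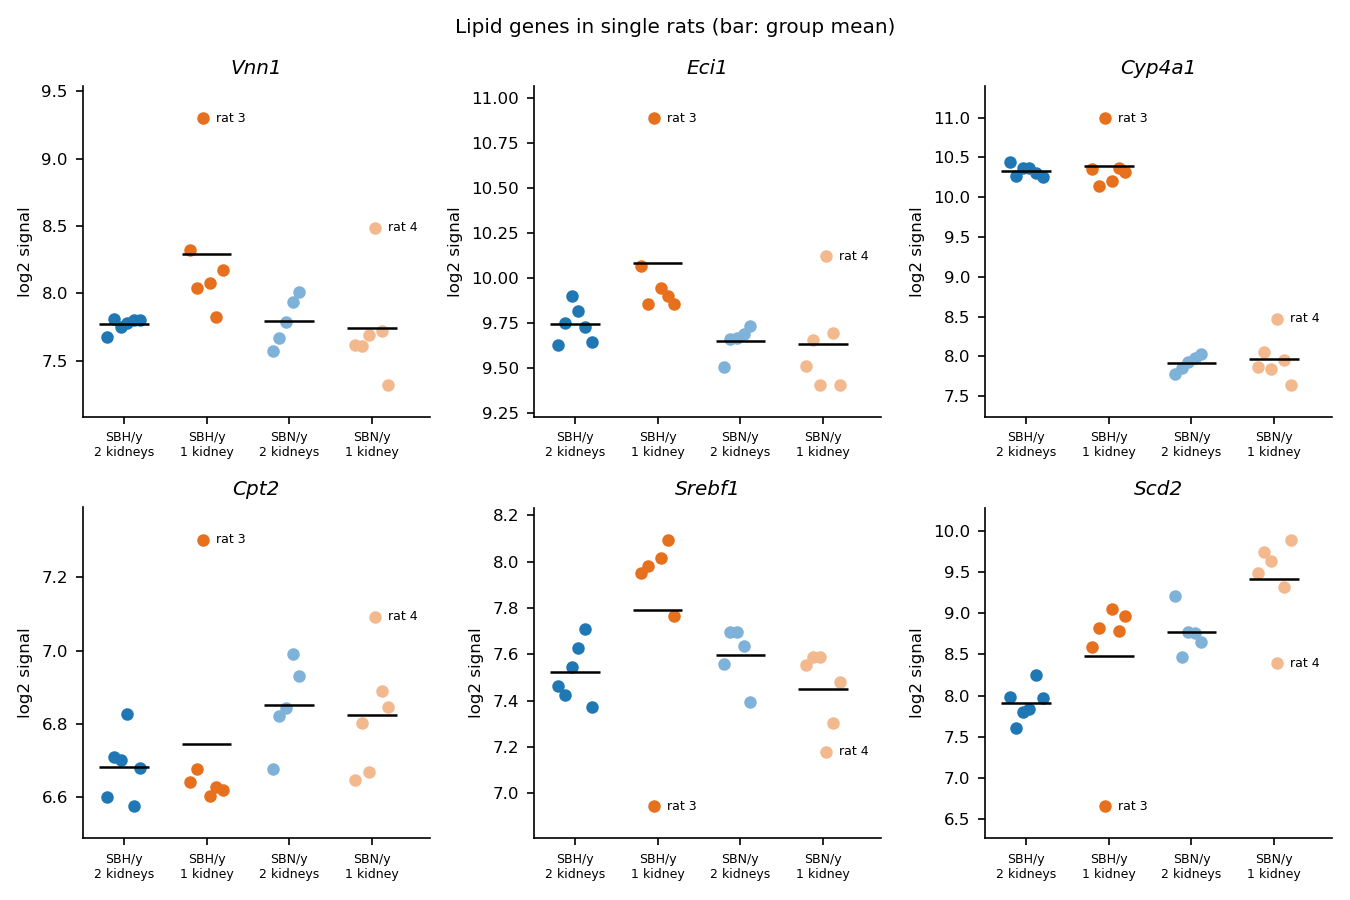
Log2 signal (y axis) of 6 lipid genes in single rats of all 4 groups (x axis), drawn as points, with group means as bars. Labelled points are SBH/y rat 3 and SBN/y rat 4 with 1 kidney, which read 9.30 and 8.49 for Vnn1 and are the highest of their groups for Vnn1, Eci1, Cyp4a1 and Cpt2 and the lowest for Srebf1 and Scd2.

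Fewer genes passed the test in SBN/y rats than in SBH/y. In SBN/y 36 genes passed (0.253%), and the response differed between the strains for 58 genes (0.408%), more positive in SBH/y for 47 (0.331%) and more negative for 11 (0.0774%). Of the 677 genes that rose in SBH/y, 556 were also higher in SBN/y with 1 kidney, and of the 341 that fell, 273 were also lower there. The share of all genes that were higher or lower in SBN/y is not given here, so these counts are no measure of agreement. The risen genes had a median of 0.36 in SBH/y, the contrast that chose them, and 0.09 in SBN/y. The fallen ones had -0.30 and -0.09. Havcr1 rose in both strains, in SBN/y by 1.37 ± 0.25, and the responses differed by 1.83 ± 0.34 (adjusted p = 0.011).

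By list, the test of the difference passed for 12 of 32 injury genes, all more positive in SBH/y, and for 9 to 15 with 1 array left out. Spp1 differed by 1.01 ± 0.14 (adjusted p = 0.000762) and Clu by 0.99 ± 0.17 (adjusted p = 0.00519). It passed for 4 of 27 macrophage markers, among them Gpnmb (1.27 ± 0.20), Mmp12 (1.31 ± 0.19) and Fcgr2b (0.96 ± 0.16), and for 2 of 11 B and plasma cell markers. The macrophage count was 9 without SBN/y 1-kidney rat 4. Olr1, a receptor for oxidised lipoprotein that was dim in all other groups, differed by 1.001 ± 0.18 (adjusted p = 0.00764), and Sectm1b, whose human counterpart binds CD7, by 0.92 ± 0.15. It passed for 0 of 22 collagens (limma; 11 at an unadjusted p under 0.05), 4 without SBH/y 1-kidney rat 3 or SBN/y 1-kidney rat 4 and 1 without SBH/y 1-kidney rat 5 or 2-kidney rat 5. It passed for 4 of 29 matrix enzymes, 2 without SBH/y 1-kidney rat 1, SBN/y 1-kidney rats 5 or 6 or SBN/y 2-kidney rats 2 or 3. Among genes that fell it passed for Cyp2c11 (-1.31 ± 0.23 (adjusted p = 0.00519)), Ugt2b7 (-0.87 ± 0.16), Ppargc1a (-0.42 ± 0.09), Mme (-0.44 ± 0.10) and Nr1d1 (-1.12 ± 0.24). Of 23 fits that each left out 1 array, Ppargc1a passed in 21, Mme in 10 and Nr1d1 in 6, with adjusted p up to 0.0648, 0.0926 and 0.0932. It passed for 0 of 12 intercalated cell, 14 podocyte and 14 principal cell markers (limma; 4, 2 and 0 at an unadjusted p under 0.05), so their falls are not shown to differ between the strains. Without SBH/y 2-kidney rat 3 it passed for 1 intercalated cell marker. Cyp1a1 and Klk1c4 did not pass either, with -0.59 ± 0.22 and -0.80 ± 0.22 in SBN/y and differences of -1.35 ± 0.31 (adjusted p = 0.0546) and -1.05 ± 0.31 (adjusted p = 0.203) between the responses.

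**Figure D5:**
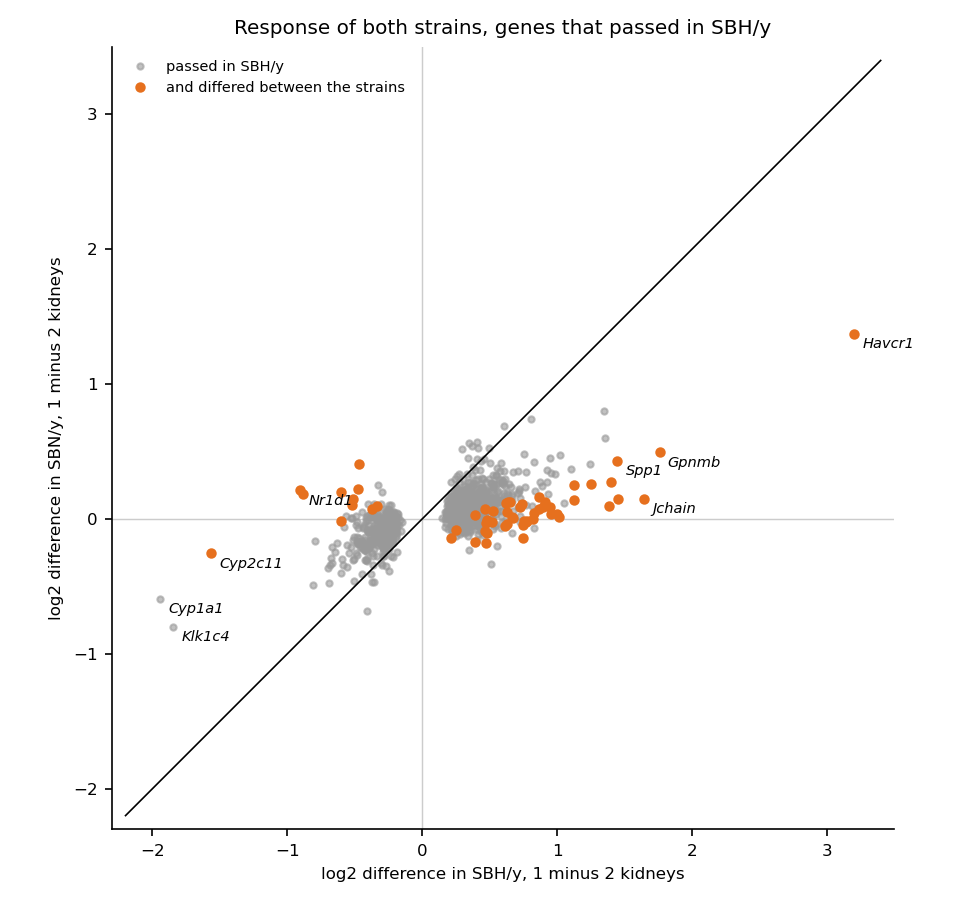
Log2 difference, 1 minus 2 kidneys, in SBN/y (y axis) against that in SBH/y (x axis) for the 1018 genes that passed the test in SBH/y, which chose the genes. Orange points also passed the test of a difference between the strains, and the line marks equal responses. Of these genes 992 are nearer to 0 in SBN/y, and the risen genes have medians of 0.36 and 0.09.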

How the data were processed

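The deposited values are log2 signals, 1 per probe set and array, made by the authors: the submitters' processing notes name GCOS and RMA. No version is given in the sources used here. RMA gives the arrays nearly equal distributions (medians 4.65 to 4.69), so a change in total mRNA could not be seen. The 57 control probe sets were left out. Of 31042 others, 20826 had 1 gene symbol in the platform annotation, 436 several and 9780 none, and symbols were updated through RefSeq (GRCr8, 20758 matched). A gene was represented by its brightest probe set.

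All 23 arrays were fitted together in limma 3.58.1 (R 4.3.3), each of the 4 groups having its own mean. This gave two-sided p-values, adjusted by the Benjamini-Hochberg method over every probe set tested in that contrast, and the threshold was 0.05. The same fit was run on a simulated set of 31042 probe sets with known shifts in SBH/y. Of 100 given a shift of 0.5, 95 were called, and of 100 given a shift of 1, all were. Outside the shifted probe sets there were 8 false calls. In the real SBH/y arrays most genes that passed spread more with 1 kidney. Whether the simulated figures hold for such data was not tested. The number of arrays limits the precision.

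The members, the 65 gene lists (1510 of 1703 entries measured, some in several lists) and the naming rule were chosen with earlier results of these data known. The rule took the 25 largest rises and falls, up to 8 genes of smallest p and the farthest opposite mover per list, 10 genes each of widest and narrowest spread with 1 kidney, and 10 of smallest p for the strain difference, without bare locus symbols, and not every gene of the rule is named. Another 23 genes were named after their values were seen: Anxa1, Anxa2, Anxa5, S100a10, S100a11, Cp, Sox4, Lcn2, Mrc1, Col4a2, Loxl2, Fos, Ctsb, Lrp2, Cubn, Bmal1, Per1, Met, Vnn1, Cyp4a1, Cpt2, Ehhadh and Pdk4. The alternatives covered quantile normalization applied again, dim probe sets filtered out, a trended and robust variance, SBH/y arrays alone, array quality weights, a GAPDH covariate, the replicate number as a block, p-values adjusted over 1 probe set per gene, a gene's next brightest probe set, and each array left out. A fit without the 3 SBH/y arrays of a weight under 0.7 (2-kidney rat 3, 1-kidney rats 2 and 5) was added after seeing the data.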

Additional observations from a re-analysis of the deposited data

Results flagged for a closer look

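In 98 sets of 5 or 6 values, each gene or list within 1 group, 16 had 1 rat far from the rest by Dixon's criterion, and chance alone gives about 1 in 20. Among SBH/y rats with 1 kidney, rat 3 was high for Vnn1 (9.30), Eci1 (10.89), Cyp4a1 (10.99), Cpt2 (7.30) and Pdk4 (6.38) and low for Scd2 (6.66), Srebf1 (6.94) and Abca1 (5.76). Several of these genes were picked because rat 3 stood apart in them, so their number says nothing about chance. In SBN/y with 1 kidney, rat 4 was high for Vnn1 (8.49) and Pdk4 (7.66). Rat 1 was high for Clu (10.54), rat 2 low for Met (4.68) and rat 5 low for Mmp12 (5.39), all in SBH/y with 1 kidney. With 2 kidneys, SBH/y rat 5 was high for Col3a1 (8.39), and rat 1 was low for Ifi27 (9.50) and Tnfrsf12a (4.93).

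The response to uninephrectomy differed between the strains (limma, adjusted p under 0.05) for these named genes, with the value in SBH/y minus that in SBN/y on the log2 scale. Among injury genes the difference was 1.83 for Havcr1, 1.12 for Tnfrsf12a, 1.01 for Spp1, 0.99 for Clu and 0.87 for Slpi. It was 0.86 for Timp1, 0.83 for Cd44, 0.63 for Vim, 0.50 for Anxa2, 0.49 for S100a10, 0.47 for S100a11 and 0.39 for Krt8. Cd44 and Krt8 were the 2 calls of the parietal cell list, which had 1 to 2 with 1 array left out. Among leukocyte genes the difference was 1.497 for Jchain, 1.31 for Mmp12, 1.29 for Ighl2, 1.27 for Gpnmb, 1.001 for Olr1 and 0.96 for Fcgr2b. It was 0.92 for Sectm1b, 0.67 for Cd3g, 0.58 for C5ar1 and 0.51 for Ctss. Among matrix genes it was 0.79 for Mfap4, 0.70 for Mgp, 0.65 for Fbn1, 0.55 for Mmp2 and 0.54 for Mmp14. The lysosomal Npc2 differed by 0.37, Cpe by 0.99 and Slc34a2 by 0.81. The Slc34a2 call was lost in most fits that left out 1 array. The response was more negative in SBH/y for Cyp2c11 (-1.31), Nr1d1 (-1.12), Ugt2b7 (-0.87), Mme (-0.44) and Ppargc1a (-0.42).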

How the results depend on the processing

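The count of probe sets that fell (613) was 360 with the SBH/y arrays alone and 369 to 651 with 1 array left out. That of probe sets that rose (950) was 695 with the SBH/y arrays alone and 688 to 1114 with 1 array left out. With p-values adjusted over 1 probe set per gene 1202 genes passed. The strain difference (79 probe sets) was called for 124 with a trended and robust variance, 124 with the GAPDH covariate, 137 with array quality weights, and 52 to 157 with 1 array left out. The cause of these shifts was not tested.

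The labels do not say whether replicate numbers pair the rats. The deviations of same-numbered arrays correlated between -0.10 and 0.26, above 0.1 in 2 of 6 pairs. Those of differently numbered arrays correlated between -0.38 and 0.44. These few correlations cannot decide whether the numbers stand for pairs. With the replicate number as a block, 323 probe sets fell, 646 rose and 62 differed between the strains.

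Of 169 named genes that passed and were followed through the alternatives, all kept their direction in each one run except Akr1b1, which was at 0.00819 by its next brightest probe set. All kept their call with repeated quantile normalization and a trended and robust variance, and all but Plin1 with array quality weights. The GAPDH covariate ended the call of 9 (Abcc2, Akr1b1, Cd3d, Cd59b, Gk, Loxl2, Pdgfrb, Plin1 and Tgfbi), the SBH/y arrays alone that of 8 (Casr, Cd59b, Kdr, Loxl2, Plin1, Ptgs1, Ptpn14 and Tgfbi), the replicate block that of 15, and the fit without 3 arrays that of 7 (Akr1b1, Cd3d, Cd59b, Gk, Itgb2, Plin1 and Ptpn14). The next brightest probe set was tested for 48 genes. Beside Akr1b1, 21 did not pass by it: Anxa2, Apoe, Cd3e, Cdkn1a, Clu, Gc, Gk, Kdr, Loxl2, Me1, Mmp2, Mmp9, Mmp14, Pdgfrb, Plin1, Ppargc1a, Prox1, Ptgs1, Ptpn14, Sox17 and Stk39. Podxl, which did not pass, passed with repeated quantile normalization. Probe sets near the lower end of the signal, such as Mki67 and Olr1 with 2 kidneys, give differences that may be too small.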

Other observations

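Gene groups not described above, or only in part, are counted here by the genes that passed in SBH/y. The test was limma, 1 kidney minus 2 kidneys, adjusted p under 0.05, by which 4.76% of all genes rose and 2.4% fell. Growth factors and their receptors held 3 genes that rose and 4 that fell of 40 (rises 1 without 1-kidney rat 6 or 2-kidney rat 2). Il34, a ligand of the macrophage growth factor receptor, read between 6.89 and 7.08 (median 6.92) with 2 kidneys and between 7.14 and 7.63 (median 7.40) with 1 and rose by 0.42 ± 0.07 (adjusted p = 0.000217). Igfbp3, a carrier of insulin-like growth factor in plasma, fell by 0.41 ± 0.07. Of 6 lymphatic markers 2 rose, Mmrn1 and Ccl21, while Prox1, the factor that sets lymphatic identity and is also made by some kidney cells, fell by 0.27 ± 0.06. Ramp1, a subunit of the receptor of the vasodilator CGRP, rose by 0.53 ± 0.10, and with Guca2a it made up the 2 rises among 24 natriuretic, guanylin and nitric oxide genes, of which Guca2b fell.

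Antioxidant genes rose for 4 of 51 and fell for 1 (falls 2 without 1-kidney rats 4 or 5). The extracellular superoxide dismutase Sod3 rose by 0.52 ± 0.08 and the glutathione peroxidase Gpx2 by 0.54 ± 0.10, and Gclc, which starts glutathione synthesis, fell by 0.19 ± 0.04. Of 31 eicosanoid genes 2 rose, among them Alox5ap (0.37 ± 0.07), the helper protein of leukotriene synthesis, and 1 fell, the cyclooxygenase Ptgs1 (-0.33 ± 0.09; falls 0 without 1-kidney rats 1, 3 or 5 or 2-kidney rats 1, 4, 5 or 6). In the inner medulla list 2 of 13 rose, Clu and Fxyd5 (0.61 ± 0.10), and 1 fell, the aldose reductase Akr1b1, which makes sorbitol (-0.41 ± 0.11; falls 0 without 1-kidney rat 2 or 2-kidney rat 2). Akr1b1 and Aqp4 were the 2 of 22 water and osmolyte genes that fell (falls 1 without 1-kidney rat 2 or 2-kidney rat 2).

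Of 31 amino acid carriers 4 fell and 1 rose, and the falls numbered 1 to 4 and the rises 0 to 1 when 1 array was left out. Of 37 citric acid cycle and mitochondrial carrier genes 3 fell (falls 1 without 1-kidney rats 1 or 3 or 2-kidney rats 1, 2, 5 or 6), with the malic enzyme Me1 at -0.34 ± 0.07, and 1 rose, the uncoupling protein Ucp2 (0.30 ± 0.06). Of 31 genes of calcium, phosphate and vitamin D 1 rose (Slc34a2) and 2 fell, Gc and the calcium-sensing receptor Casr (-0.27 ± 0.07), and 1 to 2 rose and 1 to 2 fell when 1 array was left out. Of 31 glucose genes the carrier Slc2a2 rose by 0.34 ± 0.08 and the glycerol kinase Gk fell by 0.29 ± 0.08 (falls 0 without 1-kidney rats 1 or 6 or 2-kidney rats 3, 4, 5 or 6 and 3 without 1-kidney rat 3). In the list of peroxisome genes and PPAR alpha targets, 2 of 36 fell (1 to 2 when 1 array was left out) and 0 rose (limma; 3 at an unadjusted p under 0.05). Rises numbered 2 without 1-kidney rat 5, and 1 without SBN/y 1-kidney rat 4, with the GAPDH covariate or without the 3 arrays of lowest quality weight. Of 9 fat tissue markers Plin1 fell by 0.31 ± 0.09, a call lost in most fits that left out 1 array, and 0 rose (limma; 0 at an unadjusted p under 0.05).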
